A study of Homo sapiens with 60 samples.

Results

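Coptidis Rhizoma, the dried rhizome of Coptis used in East Asian medicine and known for berberine and related alkaloids, was given to HT29 cells as a 70% ethanol extract at 3 doses. The comparison described here sets the 2 libraries of the high dose, 320 µg/mL, against the 2 libraries of the medium dose, 64 µg/mL, and asks which gene programmes moved over that 5-fold dose step alone. These are 4 of the 60 libraries of the series, chosen by their labelled extract and dose. HT29 is an established line grown from a human colorectal adenocarcinoma, and every library came from it after 24 h of treatment.

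The series profiled digestive herbal extracts by RNA sequencing in this line, with a DMSO vehicle. Its design text states that extracts with a low IC20 were given at that dose and at 1/5 and 1/25 of it, and 320, 64 and 12.8 µg/mL stand in those ratios. The 2 low dose libraries, at 12.8 µg/mL, give the 5-fold step below the one studied. Bupleuri Radix, another 70% ethanol extract, was given at 310 and 62 µg/mL in 3 libraries each and gives a second upper step at nearly equal doses. The 3 vehicle libraries carry 0.1% DMSO by their labels and 2% by the design text, and their sample names have a prefix of their own, so the effect of the extract against vehicle and that of the set of libraries cannot be told apart. Nothing in the labels says that replicates were separate cultures, so p-values measure only the spread between libraries.

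Several of the programmes below are textbook responses with known regulators. Interferon and its receptor switch on a shared set of antiviral genes through the STAT and IRF factors. Genes that copy DNA are switched on by E2F factors when a cell commits to divide, and are held down when inhibitors of cyclin-dependent kinases keep E2F bound to its repressors. Amino acid shortage, faulty protein folding and mitochondrial stress converge on the factor ATF4, low sterol on SREBP2, electrophiles on NRF2, and planar aromatic ligands on the aryl hydrocarbon receptor.

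The 6 libraries of this extract had totals of 23.5 to 28.6 M counts (M stands for 1000000), against a median of 24.1 M over the series. All 12 epithelial markers were measured. Their summed level was 10582 to 11187 CPM (counts per 1000000 counts) at the medium dose and 9317 to 9359 at the high dose. At the high dose 4 of them were higher and 7 lower, beside 26% and 26.7% of all tested genes. Markers of fibroblasts and endothelial cells summed to no more than 3.06 and 1.99 CPM in any library of this extract. The leukocyte markers summed to 1718 to 1815 CPM at the medium dose and 1487 to 1545 at the high dose, nearly all of it LYZ, which encodes lysozyme. LYZ was at 1803 and 1707 CPM at the medium dose and at 1495 and 1446 at the high dose, and 2 of the 7 leukocyte markers were at 0 in all 6 libraries. The neuronal marker MAP2 was at 0.876 and 0.423 CPM at the medium dose and at 5.1 and 4.67 at the high dose. The part of these markers in the results below was not tested.

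The step from 64 to 320 µg/mL changed many more genes than the step below it. Of 16022 tested genes, 8436 (52.7%) changed between the medium and the high dose, 4166 of them higher (26%) and 4270 lower (26.7%). Between the low and the medium dose, 216 genes (1.35%) changed, 156 higher (0.974%) and 60 lower (0.374%). A gene was called at an adjusted p under 0.05 in edgeR's quasi-likelihood test, and changes are given as log2 with their standard error. Among the called genes, 843 were at least 2-fold higher (5.26%) and 1186 at least 2-fold lower (7.4%) at the high dose. Counts of called list members below stand beside these shares of all tested genes.

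The upper step was then tested against the lower one as a difference of the signed log2 changes. The medium libraries enter both steps, so noise in them moves the steps in opposite directions and can add to this difference. The steps differed for 4265 genes (26.6%). A gene was assigned to the upper step only when it was called from medium to high, was not called from low to medium, and had an upper step that differed from the lower one in its own direction. This held for 4122 genes (25.7%), 1931 of them higher (12.1%) and 2191 lower (13.7%). A further 132 genes rose in both steps (0.824%) and 50 fell in both (0.312%). With libraries scaled by their total counts the upper step only held 2637 genes, 970 higher and 1667 lower, and it held 2448 without the medium replicate 2 and 2648 without the medium replicate 3. Without the medium replicate 3 of Zizyphi Fructus, a library of another extract with 41.8% mitochondrial counts, 629 genes changed from low to medium.

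**Figure D1:**
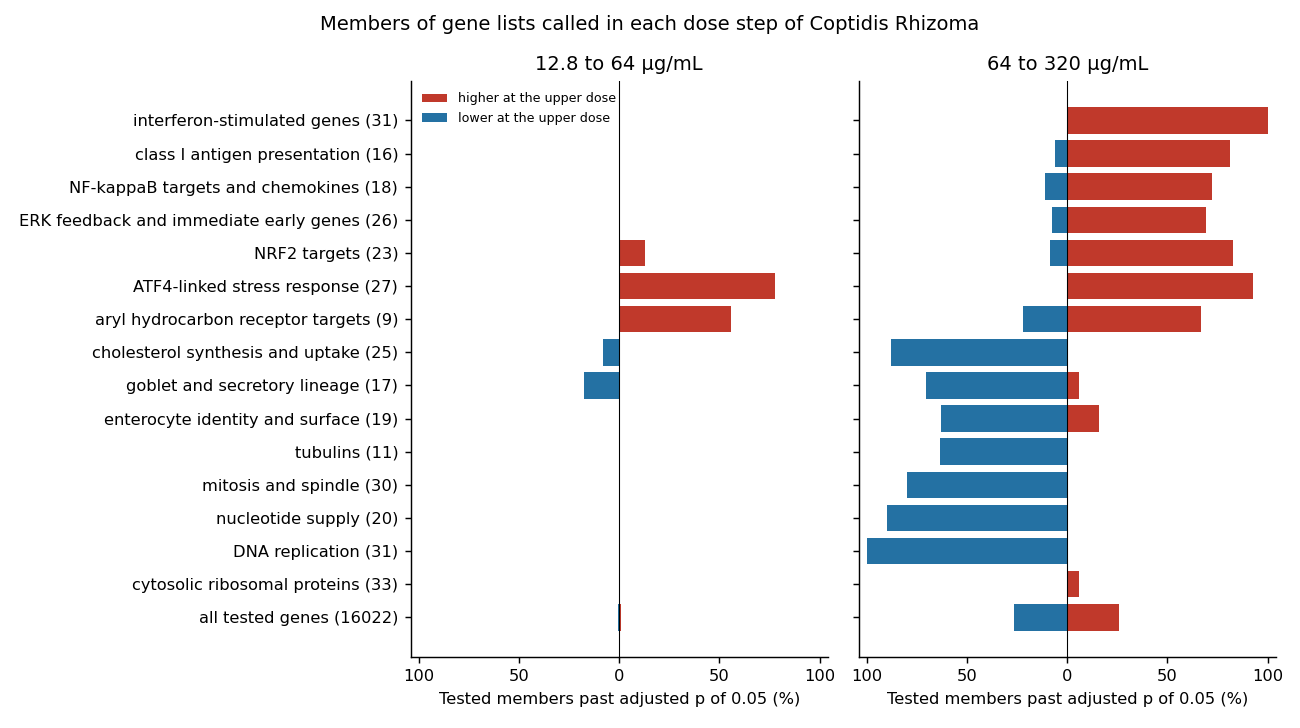
Percent of the tested members of 15 gene lists, and of all tested genes, that were called higher (red, right of 0) or lower (blue, left of 0) between the low and the medium dose and between the medium and the high dose of Coptidis Rhizoma. All 31 interferon-stimulated genes were called higher and all 31 DNA replication genes lower in the upper step with none in the lower step, while the ATF4-linked genes were called in both, 21 of 27 in the lower step and 25 of 27 in the upper.

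Interferon-stimulated genes stood among the programmes of the upper step. All 31 of the listed genes rose from the medium to the high dose, none changed from the low to the medium dose, and 29 met the rule for the upper step only. Their median log2 change was 1.80, beside a median of -0.01 over all tested genes, and their median from low to medium was -0.12, beside -0.00 over all tested genes. In bulk RNA, a change in the share of cells that express a gene and a change in RNA per cell cannot be told apart.

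MX1, a dynamin-like GTPase that blocks viral replication, was at 8.65 and 9.72 CPM in the medium dose libraries and at 65 and 57 CPM in the high dose libraries. The low dose libraries, at 12 and 10 CPM, lay close to the medium ones, and the high libraries lay above both without overlap. The change was 2.73 ± 0.14, a 6.65-fold rise (adjusted p = 1.1e-19). IFI44L, an interferon-induced gene, went from 1.16 and 1.01 CPM to 18.2 and 11.7 CPM. XAF1, which promotes apoptosis by opposing the inhibitor XIAP, went from 0.911 and 1.01 CPM to 16.1 and 12.8 CPM, the largest log2 change of the list at 3.90 ± 0.48. In both genes the replicate 2 library of the high dose was the higher.

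The promoters of MX1 and IFI44L are shown because 15 of the 24 interferon-stimulated genes with a RefSeq promoter (62.5%) hold GAAA, any 2 bases and GAAA, the core of the interferon-stimulated response element, against 2.69% of 11009 tested genes and 3.65% of all 27305 promoters. Each window runs from 250 bases before to 50 after the RefSeq start on GRCh38.p14, both strands were searched, and capitals mark the match. A match describes the letters only. IFI44L lies at chr1:78620198-78620497 and MX1 at chr21:41420308-41420607, both on the plus strand, and the IFI44L window holds the letters at 2 places.

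IFI44L: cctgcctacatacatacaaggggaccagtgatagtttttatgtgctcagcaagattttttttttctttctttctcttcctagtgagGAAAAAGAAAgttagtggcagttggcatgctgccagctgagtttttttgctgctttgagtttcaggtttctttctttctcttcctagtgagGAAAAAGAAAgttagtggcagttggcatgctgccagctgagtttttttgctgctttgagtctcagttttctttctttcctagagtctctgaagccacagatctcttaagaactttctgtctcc
MX1: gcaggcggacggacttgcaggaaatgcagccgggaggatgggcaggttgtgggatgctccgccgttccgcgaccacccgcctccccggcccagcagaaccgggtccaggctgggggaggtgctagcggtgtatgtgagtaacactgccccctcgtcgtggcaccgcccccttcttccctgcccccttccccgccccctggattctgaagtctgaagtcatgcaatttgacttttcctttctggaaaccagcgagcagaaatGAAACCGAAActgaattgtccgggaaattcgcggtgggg

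Members of the list differed in the size of their rise. IRF9, a DNA-binding subunit of the complex that carries the interferon signal, went from 15.1 and 16.4 to 51.2 and 50.7 CPM (1.70 ± 0.14). OAS1, which makes the messenger that activates RNase L, went from 31.6 and 32.3 to 126 and 111 CPM (1.89 ± 0.11). BST2, which tethers budding virions, and HERC5, the ligase for the ubiquitin-like ISG15, rose by 0.34 and 1.71, but the test of unequal steps gave adjusted p = 0.17 and 0.2, so they were outside the upper step only. SLFN5, a member of the interferon-responsive Schlafen family, was at 33.7 and 34.4 CPM at the medium dose and at 324 and 297 CPM at the high dose. Both high libraries of SLFN5 lay far above the medium ones (3.19 ± 0.10, adjusted p = 5.9e-27). Over the alternative settings, 30 to 31 genes of the list were called higher and 26 to 29 were in the upper step only, and with the compared groups fitted alone 4 were lower from low to medium.

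Genes of class I antigen presentation moved the same way, with 13 of 16 higher and 1 lower, a median of 0.68, and 10 in the upper step only, or 6 without the medium replicate 3. Reads of class I genes can be shared between near-identical copies. TAP1, a subunit of the pump that loads peptides into the endoplasmic reticulum, went from 12.4 and 12.9 to 40 and 40.4 CPM (1.67 ± 0.11). NLRC5, the transactivator of class I genes, rose by 2.28 ± 0.30 from 0.701 and 1.14 CPM. CALR, a chaperone of class I folding that also serves the whole endoplasmic reticulum, was the member that fell, by 0.66.

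Targets of NF-kappaB rose in part. Of 18 tested members, 13 were higher and 2 lower, the median was 0.95, none changed from low to medium, and 11 were in the upper step only. That number was 7 under total-count scaling and without the high replicate 3, the medium replicate 2 or the medium replicate 3, and in these settings no member was called lower. LCN2, which encodes the iron-siderophore binder lipocalin 2, was at 91.2 and 90.5 CPM at the medium dose and at 358 and 355 CPM at the high dose. The low dose libraries had 85.4 and 90.2 CPM, so the medium libraries of LCN2 lay near them and the high ones far above (1.97 ± 0.07, adjusted p = 1.2e-24). TNFAIP3, the deubiquitinase that brakes NF-kappaB, went from 1.68 and 1.48 to 5.29 and 4.42 CPM. CXCL3, a neutrophil chemokine that shares sequence with its neighbours, went from 0.736 and 0.507 to 2.44 and 3.59 CPM.

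Some members did not pass the test. NFKBIA, the feedback inhibitor that NF-kappaB induces, changed by 0.14 ± 0.15 (adjusted p = 0.46), and the chemokine CXCL8 by 0.18 ± 0.16 (adjusted p = 0.38). IL32, a cytokine of epithelial and immune cells, had the largest change among the members with a kappaB match, from 0.315 and 0.549 to 3.87 and 3.67 CPM, a rise of 3.13 ± 0.40. The step test left it outside the upper step only (adjusted p = 0.1). Its promoter is shown as an example of the 9 of 16 members (56.2%) with GGGA, any 2 bases, T, any base and CC, the core of a kappaB site, against 5.37% of tested genes and 4.85% of all promoters. It lies at chr16:3065153-3065452 on the plus strand, with the match in capitals.

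IL32: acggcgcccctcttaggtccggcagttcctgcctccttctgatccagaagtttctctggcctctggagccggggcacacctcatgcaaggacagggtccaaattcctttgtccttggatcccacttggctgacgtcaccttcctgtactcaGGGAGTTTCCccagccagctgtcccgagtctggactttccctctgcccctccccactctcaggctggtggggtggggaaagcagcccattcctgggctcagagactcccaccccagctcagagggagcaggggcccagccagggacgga

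DNA replication genes fell as a block. All 31 listed genes were lower at the high dose, none changed from low to medium, and all 31 were in the upper step only, with 28 to 31 over the alternative settings. With the compared groups fitted alone, 3 were lower from low to medium. The median change of the list in the upper step was -1.31. It ran between -0.47 for ORC6 and -2.38 for ORC1, both subunits of the complex that marks replication origins. MCM4, a subunit of the replicative helicase, was at 324 and 333 CPM at the low dose, 290 and 306 at the medium dose and 80.5 and 84.4 at the high dose. The fall of MCM4 was thus 3.61-fold in the upper step (-1.85 ± 0.06, adjusted p = 5.9e-27), against -0.14 in the lower one. PCNA, the sliding clamp of the polymerases, went from 210 and 208 to 70.2 and 78.8 CPM. ORC1 went from 29 and 30.1 to 5.44 and 5.92 CPM, with no overlap between the doses.

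The suppliers of DNA building blocks fell with them. Of 20 genes of nucleotide supply, 18 were lower and none higher, with a median of -0.60 and 16 in the upper step only, a number that was 8 with libraries scaled by total counts. RRM2, the regulated subunit of ribonucleotide reductase, went from 263 and 270 to 90.3 and 88.7 CPM (-1.57 ± 0.05). TYMS, thymidylate synthase, went from 134 and 133 to 45.1 and 46.7 CPM (-1.54 ± 0.11). Repair genes of homologous recombination and the Fanconi pathway had 18 of 19 members lower and 17 in the upper step only. With libraries scaled by total counts that number was 13, and 1 member was higher from low to medium. BARD1, the partner of BRCA1, fell by 1.64 on the log2 scale.

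The letters of the E2F site were found near the start of many replication genes, before or after it. Such a match is a property of the listed genes and not a result of these libraries. The letters TTTNNCGC were found in the promoters of 19 of 27 replication genes (70.4%), against 10.3% of tested genes and 6.9% of all promoters. LIG1, the ligase that joins Okazaki fragments, lies at chr19:48170295-48170594, and GINS2, a subunit of the helicase complex, at chr16:85688905-85689204. Both are on the minus strand and are printed 5′ to 3′ in the direction of transcription with the match in capitals, which in GINS2 is on the opposite strand. LIG1 went from 81.5 and 87.2 to 26.2 and 25.6 CPM, and GINS2 from 33.9 and 34.6 to 10.4 and 10.8 CPM.

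LIG1: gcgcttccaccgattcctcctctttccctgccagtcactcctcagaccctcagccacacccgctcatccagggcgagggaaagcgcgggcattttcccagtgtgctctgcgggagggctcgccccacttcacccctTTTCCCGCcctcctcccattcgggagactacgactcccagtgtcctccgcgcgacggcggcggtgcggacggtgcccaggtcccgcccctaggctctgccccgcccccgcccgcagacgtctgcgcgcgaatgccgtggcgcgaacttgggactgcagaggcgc
GINS2: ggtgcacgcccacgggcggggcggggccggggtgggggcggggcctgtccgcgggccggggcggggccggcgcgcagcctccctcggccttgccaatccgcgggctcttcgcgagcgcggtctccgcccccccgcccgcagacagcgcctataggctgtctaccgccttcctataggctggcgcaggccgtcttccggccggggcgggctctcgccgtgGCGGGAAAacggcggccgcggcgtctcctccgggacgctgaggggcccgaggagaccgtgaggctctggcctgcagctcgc

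The regulators of the G1 phase moved in both directions, 5 of 17 higher and 7 lower, beside 26% and 26.7% of all tested genes. CDKN1A, the inhibitor p21 of cyclin-dependent kinases, was at 15 and 14.1 CPM at the low dose, 15.3 and 16.4 at the medium dose and 91.8 and 90.9 at the high dose. The low and medium libraries of CDKN1A lie close together, and the high libraries stand 5.77-fold above the medium ones (2.53 ± 0.09, adjusted p = 1e-25). CDKN2B, another kinase inhibitor, rose by 1.38 ± 0.13. E2F1, the leading activator of replication genes, went from 69.2 and 68.1 to 17 and 17.5 CPM (-1.99 ± 0.16), E2F2 fell by 2.27, and CCNE2, a cyclin of the start of replication, fell by 2.31. CCND1, the cyclin of growth signals, rose by 0.21 ± 0.06.

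Mitotic genes fell less. Of 30, 24 were lower and none higher, the median was -0.40, none was 2-fold lower, and 18 were in the upper step only. This number was 10 without the medium replicate 3 and 26 with the compared groups fitted alone. MAD2L1, a sensor of the spindle checkpoint, went from 109 and 106 to 60.6 and 61.3 CPM, and BIRC5, the survivin subunit of the chromosomal passenger complex, from 85.5 and 83.6 to 48.7 and 50.7 CPM. PLK1, the kinase that drives mitotic entry, was at 140 and 129 CPM at the medium dose and at 115 and 126 CPM at the high dose (-0.16 ± 0.08, adjusted p = 0.11). The letters TTTGAA of the cell cycle homology region were found in 17 of 25 mitotic promoters (68%), against 9.81% of tested genes and 15.4% of all promoters. The CCAAT box, which often accompanies it, was found in 20 of 25 (80%), against 36.7% of tested genes. MAD2L1 is shown, at chr4:120066799-120067098 on the minus strand, with the TTTGAA match in capitals.

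MAD2L1: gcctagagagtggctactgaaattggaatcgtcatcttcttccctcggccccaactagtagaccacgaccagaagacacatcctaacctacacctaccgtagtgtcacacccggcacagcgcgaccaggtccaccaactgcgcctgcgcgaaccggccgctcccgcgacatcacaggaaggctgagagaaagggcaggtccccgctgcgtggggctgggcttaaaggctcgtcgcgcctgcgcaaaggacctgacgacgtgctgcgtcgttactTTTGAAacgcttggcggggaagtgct

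**Figure D2:**
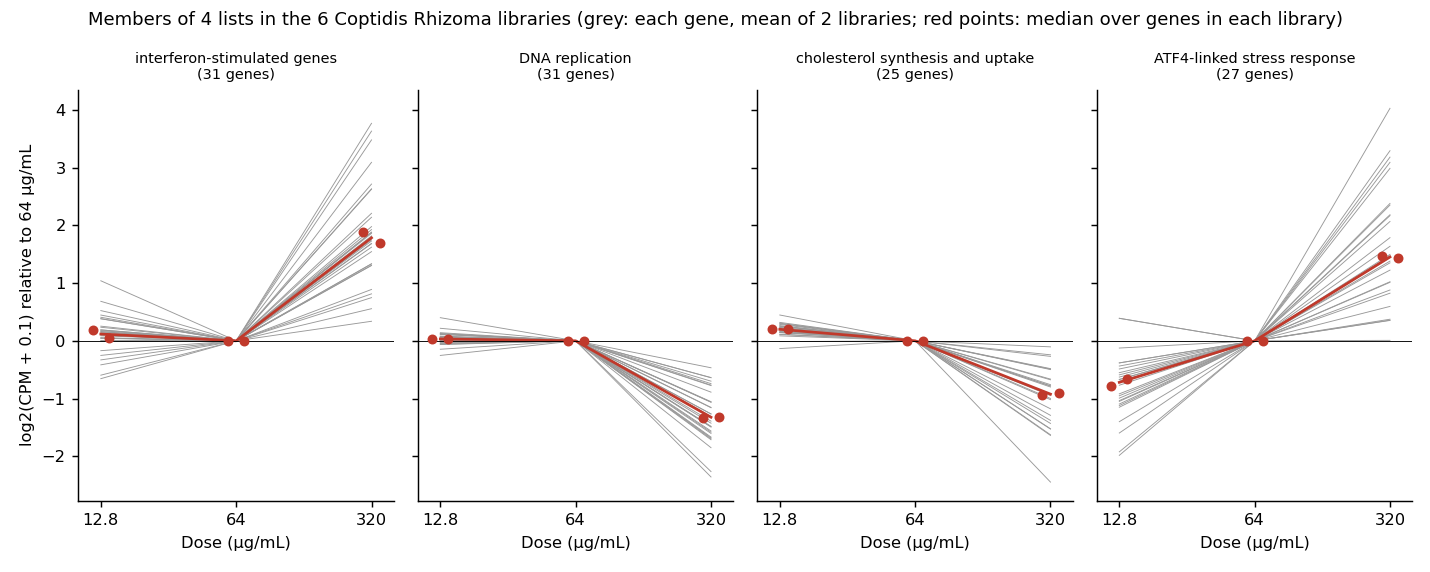
Level of each gene (grey) and the list's median in each library (red) at 12.8, 64 and 320 µg/mL, as log2(CPM + 0.1) relative to the mean at 64 µg/mL. The lists hold 31 interferon-stimulated, 31 DNA replication, 25 cholesterol and 27 ATF4-linked genes. The first 3 lists bend between 64 and 320 µg/mL, with median changes of 1.80, -1.31 and -0.93 in the upper step, and the ATF4-linked genes rise in both steps, by medians of 0.71 and 1.48.

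Sterol and fatty acid synthesis fell mainly in the upper step. Of 25 genes of cholesterol synthesis and uptake, 22 were lower and none higher, with a median of -0.93, beside -0.20 from low to medium, where 2 were lower. The upper step only held 18 of them. The lower step was already downward in this list: it had 11 members called lower without the Zizyphi Fructus library named above and 15 when the compared groups were fitted alone, and the upper step only then held 11 and 8. INSIG1 and SQLE were the members called in both steps.

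HMGCS1, which makes the precursor of mevalonate, went from 231 and 232 CPM at the low dose to 186 and 185 at the medium dose and 58.2 and 61.7 at the high dose. The upper step of HMGCS1 was -1.63 ± 0.10 and the lower one -0.32, and the steps differed (adjusted p = 6.1e-08). INSIG1, the sterol sensor that retains SREBP in the endoplasmic reticulum, fell by 0.28 in the lower step and 1.64 in the upper one. In fatty acid synthesis 8 of 10 genes were lower and 1 higher, none changed in the lower step, and FASN, the fatty acid synthase, went from 878 and 861 to 410 and 413 CPM. Of 18 promoters of the sterol list 1 (5.56%, against 1.11% of tested genes) held the letters TCACNCCAC of the sterol regulatory element.

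Markers of intestinal identity fell for the most part. Of 19 enterocyte genes, 12 were lower and 3 higher (median -0.68), beside 26.7% lower and 26% higher over all tested genes. The upper step only held 11 enterocyte genes, beside 25.7% of all tested genes. Of 17 goblet and secretory genes, 12 were lower and 1 higher (median -1.03), with 3 already lower from low to medium, a number that was 6 without the Zizyphi Fructus library. CEACAM6, a surface glycoprotein of colonic cells, went from 28.1 and 27.4 to 7.36 and 6.21 CPM (-2.03 ± 0.12). VIL1, which bundles actin in microvilli, went from 180 and 179 to 87.3 and 87.6 CPM (-1.04 ± 0.05). AGR3, a disulfide isomerase of secretory cells, went from 6.97 and 7.44 to 0.863 and 0.917 CPM (-3.01 ± 0.33). MUC2, the gel-forming mucin of goblet cells, fell by 1.68 ± 0.47, but its steps were not shown to differ (adjusted p = 0.38).

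Against this direction, KRT20, a keratin of mature colonocytes, rose from 238 and 247 to 353 and 361 CPM, and KLF4, a factor of goblet cells and growth arrest, from 9.63 and 8.75 to 46.1 and 46.8 CPM. Both were in the upper step only. Of 14 WNT targets and stem cell genes, 8 were lower and 1 higher. LGR5, the receptor that marks crypt stem cells, went from 32.2 and 31.6 to 9.34 and 9.21 CPM, and CD44, a hyaluronan receptor, from 445 and 454 to 134 and 130 CPM. AXIN2, the feedback inhibitor of WNT signalling, was the member that rose, by 0.38 ± 0.04. Of 11 tubulins 7 were lower and none higher, with TUBB going from 1273 and 1320 to 521 and 552 CPM. Of 10 keratins 4 were higher and 4 lower, beside 26% and 26.7% of all tested genes, and their median was -0.07. ACTB, a cytoplasmic actin, went from 3789 and 3766 to 2198 and 2233 CPM. The tubulins of the upper step only numbered 6, and 2 without the medium replicate 3.

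Genes of growth factor signalling rose for the most part. Of 26 genes of ERK feedback and immediate early response, 18 were higher and 2 lower, with none called in the lower step, a number that was 5 higher without the Zizyphi Fructus library and 8 higher with the compared groups fitted alone. DUSP5, a nuclear phosphatase of ERK, went from 4.52 and 4.44 to 25.5 and 23 CPM (2.43 ± 0.15). FOS was at 15.5 and 16.4 CPM at the medium dose and at 17 and 18.4 at the high dose (adjusted p = 0.22). Of 12 tested genes of the EGF receptor family and its ligands, 6 were higher and 2 lower in the upper step. In the lower step 4 were higher, and 2 when any of the medium or low dose libraries was left out. EREG, which encodes the ligand epiregulin, went from 116 and 111 CPM at the low dose to 164 and 169 and then to 484 and 469 CPM. VEGFA, the endothelial growth factor, went from 84.6 and 87.2 to 132 and 132 and then to 492 and 478 CPM. For EREG and VEGFA the upper step exceeded the lower one, by 0.96 ± 0.14 and 1.26 ± 0.11.

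Most ATF4-linked genes were higher already in the lower step. Of 27 tested genes, 21 rose from low to medium, 25 rose from medium to high, and 3 were in the upper step only. Without the low replicate 2 the lower step had 15 and the upper step only 6. Without the Zizyphi Fructus library, and with the compared groups fitted alone, the lower step had 24 higher and 1 lower and the upper step only 1. The medians were 0.71 and 1.48. ASNS, asparagine synthetase, went from 108 and 102 to 279 and 276 and then to 757 and 753 CPM. The ASNS steps, 1.40 and 1.45, differed by 0.04 ± 0.11 (adjusted p = 0.83). The steps of CHAC1, which degrades glutathione, and DDIT4, an inhibitor of mTORC1, had differences of -0.15 ± 0.26 and 0.04 ± 0.20. Each difference is smaller than its standard error.

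Other members had a steeper upper step. DDIT3, the factor CHOP, was at 6.41 and 6.72 CPM at the low dose, 10 and 11 at the medium dose and 94.9 and 97.4 at the high dose. Its steps were 0.67 and 3.20, and they differed (adjusted p = 1.7e-11). NIBAN1, a stress-induced regulator of translation, went from 8.69 and 9.43 to 151 and 148 CPM, a 16.5-fold rise. PPP1R15A, the phosphatase subunit that reverses the translational block, GDF15, a stress cytokine, and CEBPB, a partner of ATF4 and CHOP, were in the upper step only. PPP1R15A went from 30.7 and 30.5 to 233 and 255 CPM (3.00 ± 0.11), with 28.1 and 28 at the low dose. ATF3, a factor induced by ATF4, went from 2.98 and 3.67 to 5.85 and 5.07 and then to 45.5 and 49.1 CPM. The ATF3 promoter, at chr1:212565157-212565456 on the plus strand, had the largest change among the 4 of 22 members (18.2%) with the letters TGATGNAA, against 1.73% of tested genes and 3.67% of all promoters.

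ATF3: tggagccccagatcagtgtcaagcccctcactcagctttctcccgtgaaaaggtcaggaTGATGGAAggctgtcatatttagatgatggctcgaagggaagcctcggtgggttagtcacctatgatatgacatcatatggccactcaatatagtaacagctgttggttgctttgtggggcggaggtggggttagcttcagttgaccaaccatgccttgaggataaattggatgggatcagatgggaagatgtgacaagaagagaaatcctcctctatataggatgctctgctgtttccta

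Targets of the aryl hydrocarbon receptor also rose over both steps. CYP1A1, the monooxygenase that serves as its marker, was at 2.27 and 2.15 CPM at the low dose, 24.6 and 23.7 at the medium dose and 264 and 252 at the high dose. The steps of CYP1A1, 3.45 and 3.41, had a difference of -0.04 ± 0.26, and those of CYP1B1, 1.15 and 1.24, of 0.08 ± 0.12. Both differences are smaller than their standard errors. Of 9 tested targets, 6 were higher and 2 lower in the upper step and 5 higher in the lower step. The letters GCGTG were found in 6 of 7 of their promoters (85.7%), against 50.1% of tested genes and 36.3% of all promoters, and the CYP1A1 window is at chr15:74725479-74725778 on the minus strand. ALDH3A1, an aldehyde dehydrogenase of the same list, rose from 28.1 and 25.4 to 42.4 and 41.5 CPM and then fell to 31.9 and 34.7.

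CYP1A1: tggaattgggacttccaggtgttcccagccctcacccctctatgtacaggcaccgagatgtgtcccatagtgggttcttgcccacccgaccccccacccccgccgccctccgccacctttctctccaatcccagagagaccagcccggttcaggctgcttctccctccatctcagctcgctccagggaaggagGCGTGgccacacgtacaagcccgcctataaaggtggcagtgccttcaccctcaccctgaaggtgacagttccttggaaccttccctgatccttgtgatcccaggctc

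**Figure D3:**
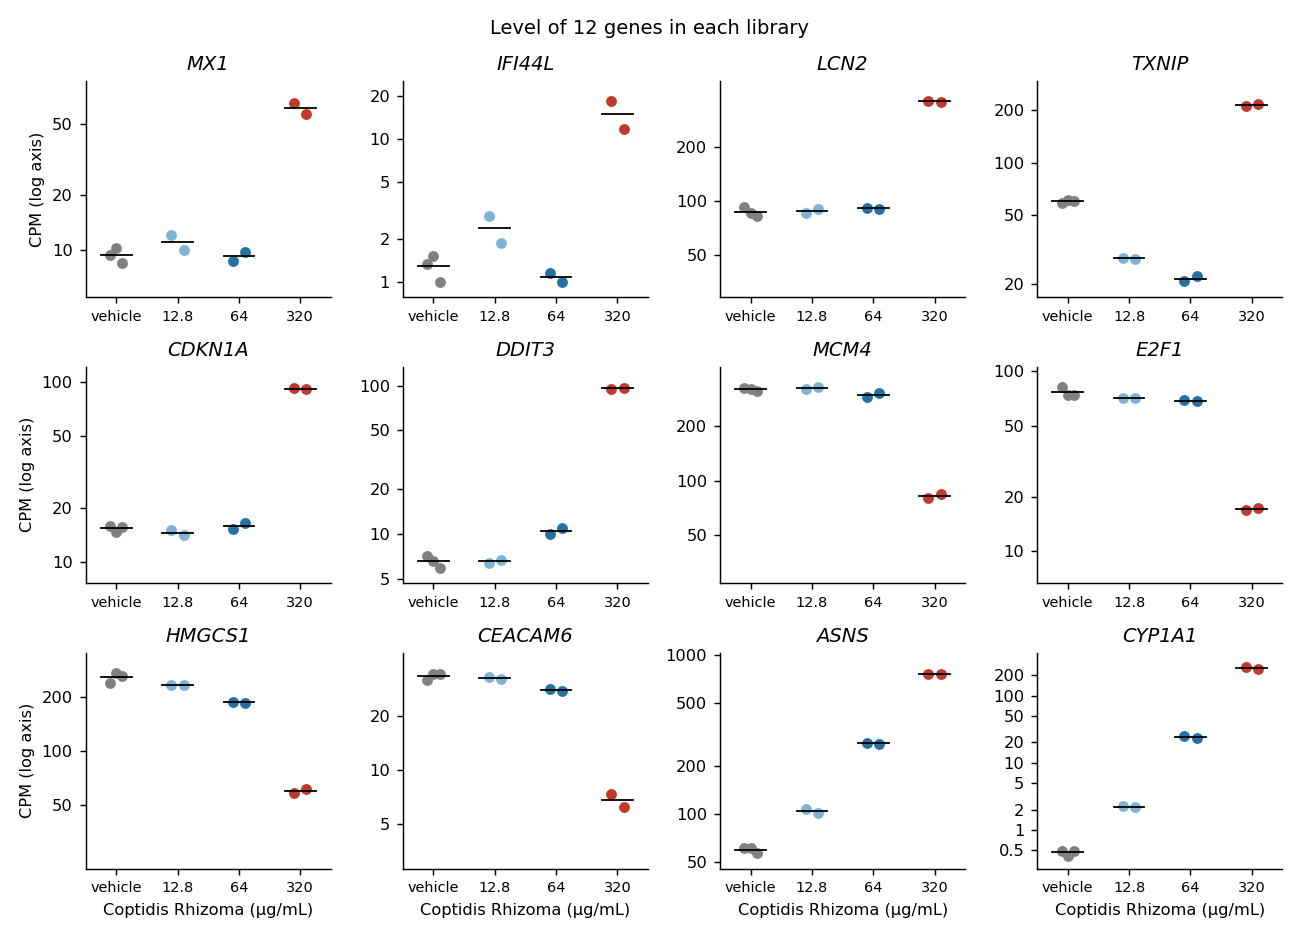
CPM on a log axis of 12 genes in the vehicle and at 12.8, 64 and 320 µg/mL of Coptidis Rhizoma, with a point for each library and a line at each group's mean. MX1, LCN2 and CDKN1A stay level up to 64 µg/mL and then rise, ASNS and CYP1A1 rise in both steps, and TXNIP falls to 20.8 and 22.2 CPM before it rises to 212 and 219 CPM.

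Targets of NRF2 rose mainly at the high dose. Of 23, 19 were higher and 2 lower (median 1.03), 3 were higher in the lower step, and 13 were in the upper step only. In the lower step 8 were higher without the Zizyphi Fructus library and 14 with the compared groups fitted alone, where 7 were in the upper step only. HMOX1, the heme oxygenase, went from 11.8 and 12.8 to 79.9 and 85.1 CPM (2.75 ± 0.14). GCLC, the catalytic subunit of glutathione synthesis, went from 107 and 103 to 252 and 259 CPM. SLC7A11, the cystine importer that ATF4 also controls, rose in both steps, by 0.95 and 1.38.

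Chaperones of the endoplasmic reticulum split, with 10 of 20 higher and 9 lower, beside 26% and 26.7% of all tested genes. Genes of disposal and signalling were among the higher ones: DNAJB9, a cochaperone of the stress response, went from 13.7 and 11.6 to 40 and 40 CPM, and SEL1L, of the degradation channel, from 65.3 and 65.1 to 175 and 174 CPM. The folding factors PDIA4, CALR and CRELD2 fell by 0.86, 0.66 and 1.01. HSPA5, the main chaperone BiP, rose from 348 and 347 to 468 and 478 CPM. In the lysosome and autophagy list, 13 of 25 were higher and 7 lower. MAP1LC3B, the membrane anchor LC3B, went from 58.9 and 58 to 311 and 310 CPM (2.41 ± 0.06), and its relative GABARAPL1 from 6.55 and 6.85 to 37.9 and 35.7 CPM.

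Genes linked to p53 and to cell death were mixed, where all tested genes had 26% higher and 26.7% lower. Of 20 p53-linked genes 13 were higher and 6 lower, among the latter BTG2, an antiproliferative factor, which fell by 1.70, and SFN, the 14-3-3 sigma adaptor, which fell by 1.14. In the BCL2 and death receptor list 12 of 23 were higher and 6 lower. BMF, which triggers apoptosis, went from 9.88 and 10.9 to 40.1 and 42 CPM, while MCL1, which opposes it, went from 245 and 250 to 423 and 417 CPM. FAS, a death receptor, fell by 0.88.

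TXNIP, the arrestin that senses glucose and limits its uptake, turned direction between the steps. It was at 28.3 and 28 CPM at the low dose, 20.8 and 22.2 at the medium dose and 212 and 219 at the high dose. Its lower step was -0.39 (adjusted p = 0.00045) and its upper step 3.32 ± 0.07 (adjusted p = 1.2e-32), a 10-fold rise. ARRDC4, its closest relative, went from 4.59 and 5.75 to 53.6 and 51 CPM. In all, 15 genes (0.0936%) were called in both steps with opposite signs. FGF19, the enterokine that signals bile acid load to the liver, rose from 63.2 and 61.6 to 94.1 and 89.6 CPM and fell back to 61.2 and 65.7 CPM. SHROOM1, of the actin-binding Shroom family, rose from 46.3 and 41.9 to 59.7 and 56.6 CPM and fell to 32.5 and 31.7 CPM.

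Among the largest falls of genes with a mean log2 CPM of at least 1 were metabolic and surface genes. ADH6, an alcohol dehydrogenase, went from 4.76 and 4.82 to 0.263 and 0.334 CPM and was in the upper step only. CEMIP, which breaks down hyaluronan, went from 16 and 18 to 1.24 and 1.21 CPM. HES6, a transcription factor related to the NOTCH targets, fell by 3.03 in the upper step only. Among the largest rises of the upper step only were ITPKA, an inositol trisphosphate kinase that bundles actin, from 2.42 and 2.03 to 22 and 23.2 CPM, and SYNE1, a nuclear envelope linker, from 0.841 and 1.52 to 10.7 and 11.3 CPM.

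Mitochondrial RNA moved beside these programmes. Mitochondrial genes took 9.63% and 9.20% of counts at the medium dose and 3.86% and 3.66% at the high dose, against 15.5% and 14.3% at the low dose. The vehicle libraries, with a prefix of their own, had 9.10%, 7.84% and 8.51%. Mitochondrial ribosomal RNA alone took 10.5% and 9.79% at the low dose, 6.445% and 6.265% at the medium dose and 1.64% and 1.565% at the high dose. In the vehicle it took 1.15%, 1.07% and 1.11%, so its fall with dose ran from above the vehicle toward that level. The ribosomal RNA MT-RNR1 went from 19088 and 18309 to 3081 and 2979 CPM (-2.63 ± 0.24), and the step differed from that between low and medium (adjusted p = 6.5e-06). MT-RNR2 went from 45375 and 44426 to 12870 and 12347 CPM, and its steps were not shown to differ (adjusted p = 0.19). Of the 13 messenger RNAs encoded in mitochondria, 2 were lower, none without the high replicate 3, and 13 when the compared groups were fitted alone or without the Zizyphi Fructus library. MT-ND5, a subunit of complex I, had its larger fall in the lower step, from 8629 and 8765 to 1444 and 1244 CPM, before 706 and 634 CPM at the high dose. Leaving mitochondrial genes out of the table gave 8423 genes changed from medium to high and 4121 in the upper step only.

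**Figure D4:**
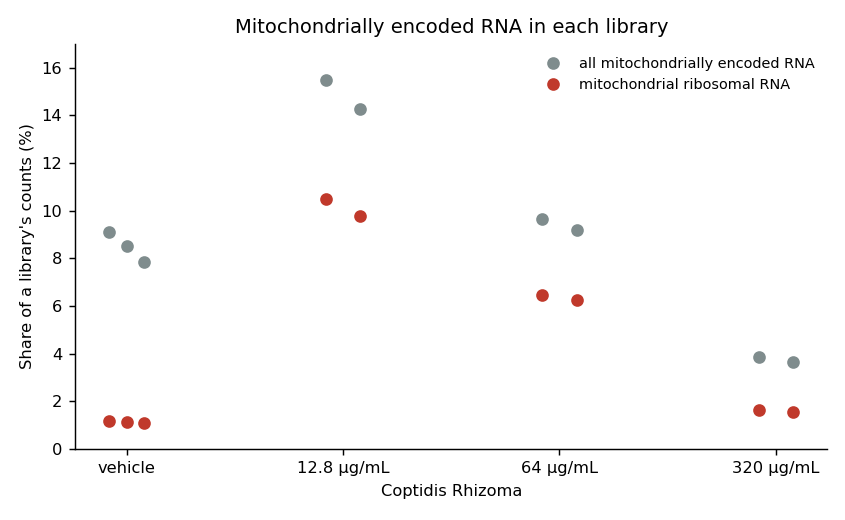
Percent of counts from mitochondrial genes in each library of the vehicle and of the 3 Coptidis Rhizoma doses, with all mitochondrially encoded RNA in grey and the mitochondrial ribosomal RNA within it in red. The whole share falls from 15.5% and 14.3% at 12.8 µg/mL to 3.86% and 3.66% at 320 µg/mL, beside 9.10%, 7.84% and 8.51% in the vehicle. The ribosomal RNA share falls from 10.5% and 9.79% to 1.64% and 1.565%, beside 1.15%, 1.07% and 1.11% in the vehicle.

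Of 28 genes of ribosome biogenesis and RNA polymerase I, 5 were higher and 14 lower, with a median of -0.25. Of 23 splicing factors 4 were higher and 8 lower, with a median of -0.11. Of 33 cytosolic ribosomal proteins 2 were higher and none lower, with a median of 0.15, although 14 were higher without the Zizyphi Fructus library and 23 with the compared groups fitted alone. Of 27 proteasome subunits 2 were higher and 4 lower, and of 37 nuclear-encoded subunits of complex I 1 was higher and 6 lower. Glycolysis had 14 of 20 genes lower and 1 higher, with a median of -0.32. Of 440 zinc finger genes of the ZNF series, 130 were higher and 75 lower, with a median of 0.11. Over all tested genes 52.7% were called. Splicing factors (52.2%) lay near that share, and ZNF genes (46.6%), proteasome subunits (22.2%), complex I subunits (18.9%) and cytosolic ribosomal proteins (6.06%) lay below it. Ribosome biogenesis (67.9%) and glycolysis (75%) lay above it.

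The upper step of Coptidis Rhizoma was next set against that of Bupleuri Radix, from 62 to 310 µg/mL. That extract changed 1555 genes (9.71%), 810 higher (5.06%) and 745 lower (4.65%). The steps of the extracts share no library, and they differed for 6501 genes (40.6%), 3204 higher in Coptidis Rhizoma (20%) and 3297 lower (20.6%). All 31 interferon-stimulated genes had the higher step in Coptidis Rhizoma, and 8 of them fell in Bupleuri Radix. All 31 replication genes had the lower step in Coptidis Rhizoma, where Bupleuri Radix had 3 lower and 1 higher. Of the 25 cholesterol genes 23 had the lower step in Coptidis Rhizoma, and 8 rose in Bupleuri Radix.

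Bupleuri Radix raised 21 of 23 NRF2 targets, and 11 of these 23 had the higher step in Coptidis Rhizoma and 5 the lower. It raised 13 of 27 ATF4-linked genes, and 23 of the 27 had the higher step in Coptidis Rhizoma. SQSTM1, the autophagy receptor p62, rose by 1.41 in each extract (adjusted p = 0.98 for the difference). Bupleuri Radix raised 4 of 15 heat shock genes, and of 20 p53-linked genes 4 were higher and 2 lower. DUSP5 rose by 1.87 in Bupleuri Radix, beside 2.43 here. MX1, TXNIP and CEACAM6 were among 307 genes (1.92%) called in both extracts with opposite signs: they changed by -0.60, -0.59 and 0.87 in Bupleuri Radix.

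**Figure D5:**
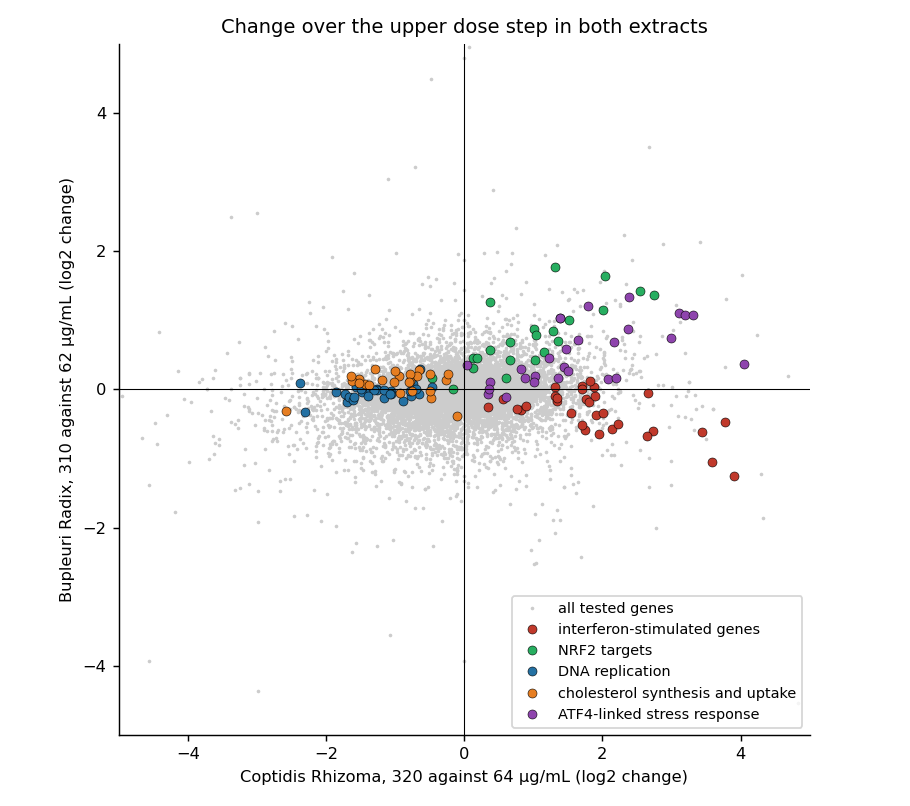
Log2 change from the medium to the high dose of each tested gene in Coptidis Rhizoma (64 to 320 µg/mL) against that in Bupleuri Radix (62 to 310 µg/mL), with 5 gene lists in colour; 50 genes lie outside the window of 5 on either side. All 31 interferon-stimulated genes lie at positive values of Coptidis Rhizoma, and 8 of them were called lower in Bupleuri Radix, where their median was -0.29. All 31 replication genes lie at negative values of Coptidis Rhizoma with a median of -0.04 in Bupleuri Radix, where 21 of 23 NRF2 targets were called higher.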

How the data were processed

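RNA libraries were made with a directional kit and sequenced as paired reads, per the labels' protocols. The values deposited by the authors are expected counts, 1 row a gene. The submitters' processing notes name RSEM 1.3.3 and STAR 2.7.3a, beside FastQC 0.11.9 and, for trimming, Trim Galore 0.6.5, and the build GRCh38. The annotation and the strand setting of the counting are not given in the sources used here. Of its 270 columns, 210 match no sample described here and were not used. Symbols were found for 93.2% of 60675 gene IDs, and 94.0% are in GENCODE 29.

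Expected counts were rounded to whole numbers (91.0% were whole already, and no library total moved by more than 0.00022%). Genes reaching 0.5 CPM in 3 or more libraries entered edgeR 4.0.16 (R 4.3.3, limma 3.58.1): TMM scaling, 25 group means over all 60 libraries, 35 residual degrees of freedom, the quasi-likelihood test and Benjamini-Hochberg adjustment over all tested genes at 0.05. The biological coefficient of variation was 7.83%. CPM of single genes are shown per TMM-scaled library, while summed marker levels and the level of 3 counts use unscaled library totals. In the libraries of this extract 3 counts equal 0.105 to 0.128 CPM. Counts of replicates differed by more than sampling noise (chi-square per degree of freedom of 2.17 at the high and 2.28 at the medium dose). The value was larger at the low dose, 4.46, which enters the lower step, and in the vehicle, 17.8. The code was tested on simulated data in which far fewer genes changed than were called here.

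Named genes were those with a mean log2 CPM of at least 1 over the 6 libraries: the 8 largest rises and falls of the upper step and of the upper step only, the 5 largest turns in each direction, and from each list the largest called changes, 4 at most; other list members are given with their values. The comparison, the lists and the motifs were chosen with earlier results of these data known. Alternatives were other scalings, filters, DESeq2 1.42.0, fewer groups, a replicate block and leaving out libraries. Some genes that the rule names are not reported here.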

Additional observations from a re-analysis of the deposited data

Results flagged for a closer look

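The upper step differed between Coptidis Rhizoma and Bupleuri Radix for 6501 genes by the test of the difference itself, at nearly equal doses. For 307 genes (1.92% of those tested) the step was called in both extracts with opposite signs, 138 higher in Coptidis Rhizoma and lower in Bupleuri Radix, and 169 the reverse.

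Of the genes named by rule, 21 were called with opposite signs. Sterol export genes were among them: ABCA1, the pump that loads HDL, changed by 1.17 in Coptidis Rhizoma and by -0.45 in Bupleuri Radix, and its relative ABCG1 by 2.34 and -0.76. INSIG1 changed by -1.64 and 0.19. The interferon-stimulated genes MX2 and SLFN5 changed by 3.59 and 3.19 in Coptidis Rhizoma and by -1.05 and -0.40 in Bupleuri Radix. The drug exporter ABCG2 changed by -1.06 and 0.29, and CEACAM5, a surface antigen of colonic tumours, by -2.24 and 1.11.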

How the results depend on the processing

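Values of the 206 named genes were recomputed under 16 alternatives: 197 were called in all of them and none of 3292 values changed sign, while CD59, RPS6, EPHB3, NDUFA2, NDUFA3, PIK3R3, SLC43A1, MT-ND5 and MT-ND4L lost their call in at least 1. Scaling by total counts gave 2755 genes with unequal steps and 2637 in the upper step only, 970 higher and 1667 lower, beside 1931 and 2191 as reported, and raised the median of the lower step over all genes to 0.091. It shared 56.3% of the reported genes of the upper step only. With the compared groups fitted alone, 950 genes changed from low to medium, 6833 had unequal steps and 3054 rose in the upper step only. Without the medium replicate 3 of Zizyphi Fructus 629 genes changed from low to medium, 6251 had unequal steps and 5788 were in the upper step only, 2801 higher and 2987 lower, and 580 changed from low to medium when DESeq2 was used as well, a setting chosen after seeing the data. Leaving out each Coptidis Rhizoma library in turn gave 7048 to 8408 genes from medium to high, 95 to 215 from low to medium, 2505 to 3706 with unequal steps, 2448 to 3622 in the upper step only, 1079 to 1689 higher and 1369 to 1958 lower. The lowest values, 2448 and 95, came without the medium replicate 2, which enters both steps, and 56.9% of the reported genes of the upper step only were shared.

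Same-numbered libraries of the high and medium dose had deviations correlated at 0.012. With only 2 numbers this cannot settle whether replicate numbers pair the libraries, and the main fit did not pair them. With the replicate block 8386 genes changed from medium to high, 207 from low to medium, 4199 had unequal steps, 4063 were in the upper step only and 6448 differed from Bupleuri Radix. With 2 libraries a dose, the spread is borrowed from the other groups, and genes near 0.128 CPM rest on 3 counts.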

Other observations

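Genes of amino acid handling were higher more often than lower, where all tested genes had 26% higher and 26.7% lower. Of 20 cytosolic aminoacyl-tRNA synthetases, 12 were higher and 4 lower from medium to high, and 8 were already higher from low to medium. Of 17 amino acid transporters, 10 were higher and 4 lower, and 6 were already higher from low to medium. WARS1, the tryptophan enzyme, which interferon also induces, went from 148 and 153 to 610 and 608 CPM (2.02 ± 0.08), while VARS1, the valine enzyme, fell from 215 and 208 to 90.7 and 95.1 CPM in the upper step only. SLC6A9, a glycine transporter, went from 1.47 and 1.99 CPM at the low dose to 6.76 and 7.4 and then to 71.6 and 69.1 CPM. The mitochondrial chaperone HSPA9 rose from 439 and 441 to 899 and 926 CPM in the upper step only, and TRAP1, another chaperone of that compartment, fell from 182 and 180 to 94.2 and 99.4 CPM.

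Barrier and transport genes moved one by one. CLDN2, the cation pore of leaky tight junctions, went from 125 and 132 CPM at the low dose to 93 and 101 and then to 14.2 and 14 CPM, a fall of 2.78 on the log2 scale in the upper step. Of 16 junction genes 7 were higher and 4 lower, beside 26% and 26.7% of all tested genes. CLDN7 was among the higher ones, from 177 and 177 to 261 and 262 CPM. The drug exporter ABCG2 went from 98.5 and 97.1 to 47.7 and 46 CPM, and PPARG, a nuclear receptor of colonocytes, from 102 and 102 to 60.9 and 55.4 CPM. CA9, a carbonic anhydrase known from hypoxia, fell from 50.8 and 50.2 to 13 and 15.4 CPM, although VEGFA, known from the same response, rose. AMOTL2, a YAP target, rose from 56.7 and 58 to 148 and 153 CPM, and CD55, which protects cells from complement, from 44.8 and 44.4 to 131 and 129 CPM.

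Gene properties went with the direction of the upper step to a small degree. In the 3183 genes whose longest transcript had the highest GC content, 57.9% to 75.8%, 628 were higher and 1044 lower (median -0.14), against 1009 higher and 747 lower in the lowest bin (median 0.05). Of 1018 antisense genes 103 were higher and 215 lower, and of 668 lincRNA genes 88 were higher and 161 lower, beside 3797 and 3618 of 12744 protein-coding genes. Counts of antisense genes depend on the strand setting of the counting.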
